A study of Mus musculus with 45 samples.

Results

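Tbx15, Tbx18, Prrx1, Prrx2 and Foxf2 encode transcription factors that pattern mesenchyme, the loose connective tissue of the embryo. These 5 genes, of 18820 genes measured, were described in 45 mouse mammary tumours whose hosts had or had not been exposed to silicon ions. Each gene was represented by the probe set with the highest mean among those that carried its symbol alone. The set was chosen with earlier results of these arrays in view: Tbx15 was selected on its difference between tumours of the highest dose and controls, so every value of that comparison below is a description with no test. All 5 passed the filter on low values, which left 12123 genes.

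Tbx15 and Tbx18 are related T-box factors that act in limb, trunk and skeletal mesenchyme, and Tbx18 also acts in the mesenchyme around the ureter and in cells of vessel walls. Prrx1 and Prrx2 are paired-related homeobox factors of limb and craniofacial mesenchyme, and Prrx1 is widely used as a marker of fibroblasts and of cells in a mesenchymal state. Foxf2 is a forkhead factor of the mesenchyme of gut and palate and of pericytes in the brain. In a mammary tumour such genes can be expressed by stromal cells of the host or by tumour cells that have lost epithelial features. In bulk tissue, fewer cells of a type and less RNA per cell cannot be told apart.

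Every tumour grew from mammary fragments of BALB/c donors that lacked the tumour suppressor Trp53, placed in the inguinal fat pads of females of the same strain, wild-type and 10 weeks old. The hosts' own mammary epithelium had been taken out at 3 weeks of age. Only the hosts were exposed, 3 days before they received the fragments, to 10 cGy (9 tumours), 30 cGy (10 tumours) or 80 cGy (8 tumours) of silicon (Si) ions, or were not irradiated (sham, 18 tumours). Si ions are charged nuclei of silicon, a form of densely ionizing radiation. Hosts were followed for 600 days, and tumours were removed at a size of 1 cm3. The labels do not say whether tumours of a group came from separate hosts. A p-value here sets a result against the spread between these tumours, part of which may be technical. The tests take the tumours as separate, so p-values could be too small where tumours shared a host. Tumour and host cells share a strain, and the arrays do not tell their transcripts apart.

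Each tumour was measured on 1 array, with array medians between 5.48 and 5.80 on the log2 scale. Epcam and Krt18, which mark epithelium, had medians of 10.97 and 11.80 over the 45 tumours, but 8 tumours lay below a gap in the score of 20 epithelial markers (4 sham, 1 at 10 cGy, 1 at 30 cGy and 2 at 80 cGy). Another 8 tumours had a skeletal muscle or adipocyte score above 2 (4 sham, 1 at 10 cGy, 1 at 30 cGy and 2 at 80 cGy). A score averages the log2 values of the listed genes in a tumour after each gene is centred on its own mean of all 45 tumours. The genotype was not checked, since no probe set carried the symbol Trp53 alone. The arrays fell into 2 sets on probe sets that have no gene symbol (9 and 9 sham, 3 and 6 at 10 cGy, 5 and 5 at 30 cGy, 2 and 6 at 80 cGy), and the labels name no batch.

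The promoters of Tbx18 and Foxf2 are printed because, as described below, Tbx18 followed 2 other members and the fibroblast and matrix score over the 45 tumours, while Foxf2 passed the test with neither. RefSeq promoter windows (GRCm38.p6) were found for 4 of the 5 members, each the 250 bases before the transcription start listed there, read 5′ to 3′ on the gene's strand. The windows of Tbx18 (chr9:87731261-87731510, minus strand) and Foxf2 (chr13:31625566-31625815, plus strand) end where the gene begins. Those of Prrx1 (chr1:163313651-163313900, minus strand) and Prrx2 (chr2:30845117-30845366, plus strand) lie inside the gene's listed span, so they can overlap its longer transcripts and are described without their letters. Capitals mark CpG dinucleotides.
Tbx18: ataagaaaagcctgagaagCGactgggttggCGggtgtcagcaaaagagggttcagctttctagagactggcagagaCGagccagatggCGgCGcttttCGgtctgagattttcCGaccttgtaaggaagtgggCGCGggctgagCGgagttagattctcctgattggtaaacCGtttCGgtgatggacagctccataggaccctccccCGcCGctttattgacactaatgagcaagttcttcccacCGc
Foxf2: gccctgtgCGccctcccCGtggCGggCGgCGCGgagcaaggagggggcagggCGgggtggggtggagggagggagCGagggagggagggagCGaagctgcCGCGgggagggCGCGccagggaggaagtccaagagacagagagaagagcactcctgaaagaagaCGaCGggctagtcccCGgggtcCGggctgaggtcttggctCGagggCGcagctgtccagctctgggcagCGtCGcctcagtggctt
The Foxf2 window had 71.6% G and C with 21 CpG dinucleotides and the Tbx18 window 54.0% with 15. Prrx2 had 70.0% with 21 and Prrx1 47.6% with 4, beside medians of 52.4% and 6 over all windows. The T-box half-site AGGTGT, the homeodomain core TAATTA and the forkhead core GTAAACA were searched on both strands, and no 2 matches overlapped in these windows. Only the Prrx1 window held one of them, TAATTA at position -173 from the listed start. Among 32851 promoter windows of the same length, AGGTGT occurred in 11.8%, TAATTA in 4.84% and GTAAACA in 3.17%.

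Across all 45 tumours the 5 genes varied more than most. The SD of Tbx15 was 1.23 (log2), larger than that of 94.4% of the 12123 genes. Foxf2 had an SD of 1.06, larger than 91.3% of genes, and Tbx18 had 1.00, larger than 89.8%. The SD was 0.92 for Prrx1 and 0.90 for Prrx2, beside a median of 0.43 over all genes. The genes differed in how often they stood clear of the lower part of the scale: Prrx1 was above the median of the whole table, 5.67, in 45 tumours, Tbx15 in 43, Prrx2 in 42, Tbx18 in 29 and Foxf2 in only 15. Low values on arrays are compressed, so differences among dim tumours of Foxf2 and Tbx18 are understated. Group means took up 28.9% of the variance of Tbx15, 29.0% of that of Prrx2 and 29.1% of that of Foxf2, but 8.02% of that of Prrx1 and 2.74% of that of Tbx18, beside a median of 5.54% over all genes. These shares include the 80 cGy values, which led to the choice of Tbx15 and were known when the other members were chosen. The shares of Prrx2 and Foxf2 are therefore descriptions too.

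**Figure D1:**
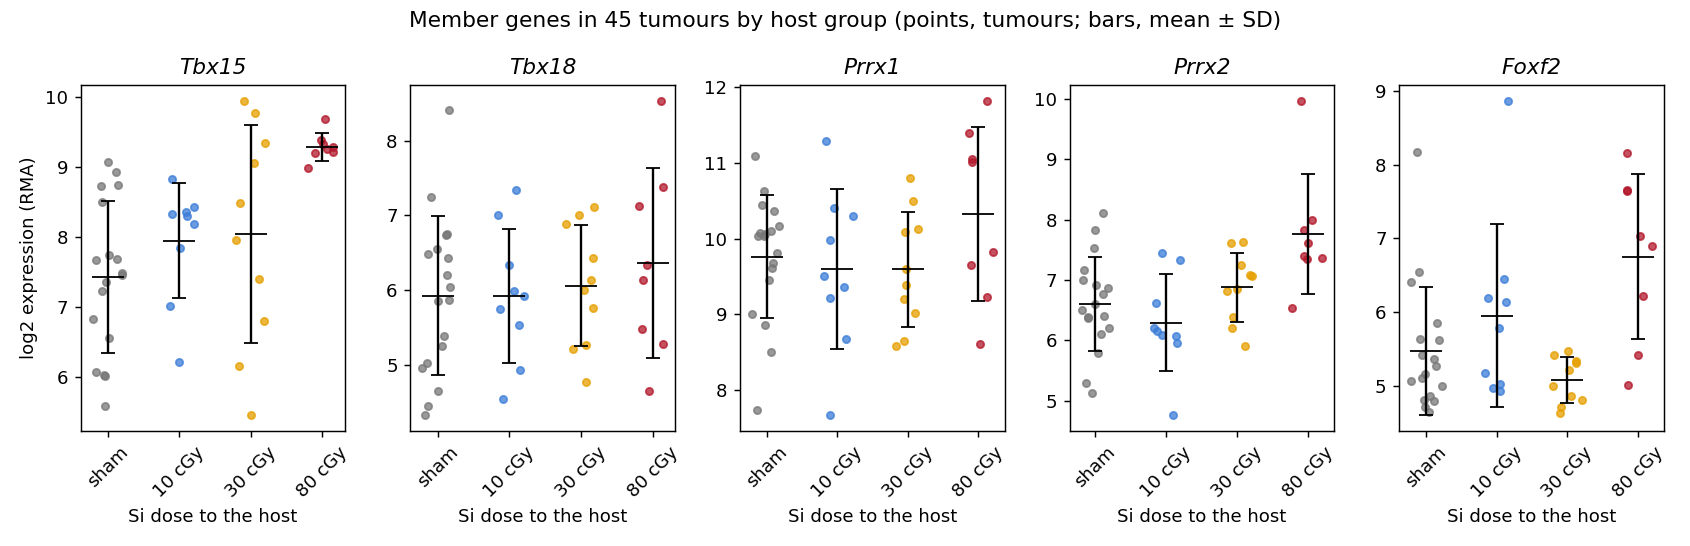
Log2 expression (y axis, RMA values, a separate scale for each gene) of the 5 genes in 45 tumours by host group (x axis). Points are tumours and bars are the mean ± SD of 18 sham, 9, 10 and 8 tumours. The 8 Tbx15 points at 80 cGy lie between 8.97 and 9.68, while those of the other groups spread over several log2 units, and Foxf2 at 30 cGy stays between 4.63 and 5.47.

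Tbx15, a T-box factor known for its part in skeletal development and in patterning of the coat, was high in every tumour of the 80 cGy group. Its log2 level ran from 5.58 to 9.07 with a median of 7.47 in the 18 sham tumours. It ran from 6.22 to 8.83 (median 8.29) at 10 cGy. At 30 cGy it ran from 5.45 to 9.94 (median 8.22). The 30 cGy group thus held both the lowest and the highest Tbx15 of the 45 tumours. At 80 cGy the lowest value was 8.97, the median 9.26 and the highest 9.68, so that 7 of 8 tumours lay above the highest sham tumour.

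The order of the Tbx15 means was 80 cGy (9.29 ± 0.20, SD, n = 8), 30 cGy (8.03 ± 1.56, n = 10), 10 cGy (7.94 ± 0.82, n = 9) and sham (7.42 ± 1.09, n = 18). Neighbours below 80 cGy in that order differed by less than their SD. The mean at 80 cGy was 1.86 ± 0.45 (SE) above sham. In that comparison 0% of all genes passed an adjusted p of 0.05 and 6.97% an unadjusted one, and nothing is read from it for Tbx15. The SD among the 8 tumours was 0.183 times that of sham, a description from the same comparison. Within the 2 array sets, the 80 cGy mean was 2.25 (2 against 9 tumours) and 1.63 (6 against 9) above sham. With the fibroblast and matrix score as a covariate it was 1.69 ± 0.42 above sham. The highest Tbx15 of all, at 30 cGy, was in the tumour with the highest skeletal muscle score (6.40), and its part in that value was not tested.

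Prrx2, the paralogue of Prrx1, was also higher at 80 cGy, but with overlap. Its log2 level ran from 5.14 to 8.11 (median 6.55) in sham tumours. At 10 cGy it ran from 4.76 to 7.45 (median 6.16). At 30 cGy it ran from 5.90 to 7.62 (median 6.96). At 80 cGy it ran from 6.54 to 9.97 (median 7.50), and 7 of 8 tumours were above the sham median. The means in order were 7.76 ± 0.99 (SD, n = 8) at 80 cGy, 6.88 ± 0.57 (n = 10) at 30 cGy, 6.61 ± 0.78 (n = 18) in sham and 6.29 ± 0.80 (n = 9) at 10 cGy. The 3 lower groups followed each other by less than their SDs.

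The 80 cGy mean of Prrx2 was 1.15 ± 0.33 (SE) above sham. One tumour, replicate 8 of 80 cGy, stood at 9.97 with the next at 8.00, and without it the difference of means was 0.83. That tumour was 1 of the 8 poor in epithelial markers. With the fibroblast and matrix score as a covariate the difference was 0.87 ± 0.20, and within the array sets it was 1.10 and 1.15.

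Foxf2 was low in every tumour at 30 cGy and in most sham tumours, and high in most tumours at 80 cGy. Its log2 level ran from 4.64 to 8.17 (median 5.21) in sham tumours. At 10 cGy it ran from 4.93 to 8.87 (median 5.79). All 10 tumours at 30 cGy were low, from 4.63 to 5.47 (median 5.11). At 80 cGy it ran from 5.00 to 8.16 (median 6.96), with 6 of 8 tumours at 6.21 or more and none above the highest sham tumour. The means in order were 6.75 ± 1.12 (SD, n = 8) at 80 cGy, 5.95 ± 1.24 (n = 9) at 10 cGy, 5.47 ± 0.87 (n = 18) in sham and 5.08 ± 0.31 (n = 10) at 30 cGy, each within the larger SD of itself and its neighbour.

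The 80 cGy mean of Foxf2 was 1.29 ± 0.38 (SE) above sham. The value was 0.87 ± 0.45 without the 8 tumours poor in epithelial markers and 1.71 ± 0.38 without the 8 with muscle or fat. Those with muscle or fat include sham replicate 3, the sham tumour with the highest Foxf2 (8.17, with the next at 6.54). The order of the 3 doses was not that of the dose itself, since Foxf2 was 0.87 ± 0.41 lower at 30 than at 10 cGy. That was the only one of the 15 tested member differences with an unadjusted p under 0.05 (limma, p = 0.040), and it did not pass Benjamini-Hochberg adjustment over all genes (adjusted p = 0.9998). In the same comparison 2.98% of all genes had an unadjusted p that low. The 10 cGy mean leaned on 1 tumour, replicate 7, at 8.87: the difference from sham was 0.48 with it and 0.12 without it, and the difference between 30 and 10 cGy was -0.51 ± 0.37 without it (limma, adjusted p = 0.9999).

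Tbx18 and Prrx1 differed little between the groups. Tbx18 ran from 4.32 to 8.42 (median 5.95) in sham tumours. It ran from 4.54 to 7.34 (median 5.92) at 10 cGy and from 4.77 to 7.11 (median 6.07) at 30 cGy. At 80 cGy it ran from 4.64 to 8.54 (median 6.23). The groups overlapped over nearly their whole ranges, with means of 6.37 ± 1.27 (SD, n = 8) at 80 cGy, 6.06 ± 0.81 (n = 10) at 30 cGy, 5.93 ± 0.90 (n = 9) at 10 cGy and 5.92 ± 1.06 (n = 18) in sham. A second probe set of Tbx18 spread far less (SD 0.28, mean 5.48) and correlated with the first at r = 0.39 over the 45 tumours. On that probe set the means were 5.58 ± 0.41 at 80 cGy and 5.43 ± 0.24 in sham.

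Prrx1 ran from 7.74 to 11.09 (median 10.03) in sham tumours and from 7.67 to 11.29 (median 9.51) at 10 cGy. It ran from 8.59 to 10.80 (median 9.49) at 30 cGy and from 8.61 to 11.82 (median 10.42) at 80 cGy. No dose group left the range of the sham tumours by more than 1 log2 unit at either end. The means were 10.32 ± 1.15 (SD, n = 8) at 80 cGy, 9.76 ± 0.81 (n = 18) in sham, 9.60 ± 1.06 (n = 9) at 10 cGy and 9.59 ± 0.76 (n = 10) at 30 cGy, all within an SD of each other.

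At 80 cGy Tbx18 was 0.44 ± 0.42 (SE) and Prrx1 0.57 ± 0.38 above sham. With the fibroblast and matrix score as a covariate these values were 0.10 ± 0.29 and 0.24 ± 0.24. The sign of the Tbx18 difference was opposite in the 2 array sets (1.45 and -0.14), and the Prrx1 difference was 1.10 in one and 0.22 in the other. Without the 8 tumours poor in epithelial markers the Prrx1 difference was 0.34 ± 0.43. The fibroblast and matrix score itself had a mean of 0.36 ± 0.92 (SD) at 80 cGy and of -0.03 ± 0.96 in sham, and its part in these differences was not tested.

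Over the 3 doses together, Tbx15 was 1.00 ± 0.32 (SE) above sham, Foxf2 0.46 ± 0.27 and Prrx2 0.37 ± 0.23, while Tbx18 was 0.19 ± 0.30 and Prrx1 0.08 ± 0.27 above it. This comparison holds the 80 cGy tumours and is likewise a description, with 0% of all genes past the adjusted threshold and 5.82% at an unadjusted p under 0.05.

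None of the members passed limma's test in the 3 comparisons that the choice of genes did not use. Adjusted p was between 0.990 and 1.00 for all 15 member differences, with Benjamini-Hochberg adjustment over 12123 genes. Over all genes 0% passed at 10 cGy against sham, at 30 cGy against sham and at 30 against 10 cGy, and 3.65%, 4.45% and 2.98% had an unadjusted p under 0.05. Tbx15 had the largest differences from sham: 0.52 ± 0.43 at 10 cGy and 0.61 ± 0.41 at 30 cGy. Prrx2 was -0.31 ± 0.31 and 0.27 ± 0.30 from sham at these doses. Prrx1 was -0.16 ± 0.37 and -0.16 ± 0.35, and Tbx18 0.13 ± 0.39 at 30 cGy. Foxf2 was 0.48 ± 0.37 at 10 cGy and -0.39 ± 0.35 at 30 cGy. Prrx2 was 0.59 ± 0.35 higher at 30 than at 10 cGy, and in that contrast Tbx15, Tbx18 and Prrx1 were 0.093 ± 0.48, 0.13 ± 0.46 and -0.0053 ± 0.41. The sign turned under at least 1 alternative for Tbx18 at 10 and at 30 cGy against sham, for Prrx1 at 10 cGy against sham, and for Tbx15 and Prrx1 between 30 and 10 cGy. All comparisons with sham share the same 18 tumours.

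**Figure D2:**
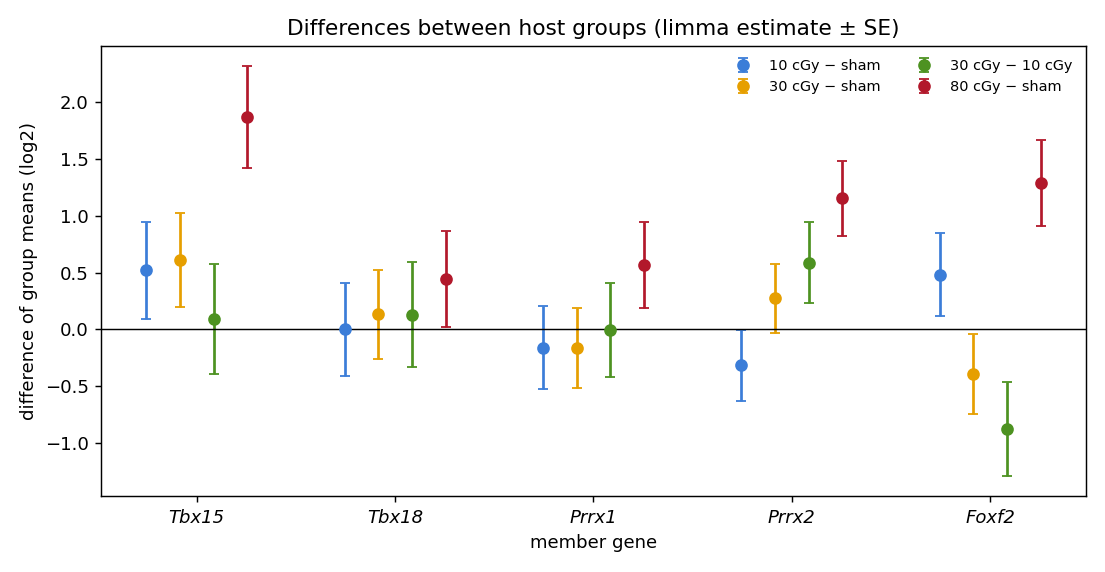
Difference of group means (y axis, log2) ± standard error from limma for each gene (x axis), with the 3 tested comparisons and 80 cGy against sham, which is shown as a description because the members were chosen with it known. Tbx15 at 80 cGy is highest at 1.86, Foxf2 follows at 1.29 and Prrx2 at 1.15, and the comparisons with sham share its 18 tumours.

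The members were counted in each tumour by how many lay above their own median over the 45 tumours. At 80 cGy, 3 of 8 tumours had all 5 genes above it, 2 had 4, 2 had 3 and 1 had 2. Among the other 37 tumours only 1, at 10 cGy, had all 5. In the sham group 8 of 18 tumours had 1 gene above its median and 6 had 4. The high tumours at 80 cGy were not one kind: 2 of the 3 with all 5 genes high were poor in epithelial markers and the third was not. These counts include the 80 cGy values, which led to the choice of Tbx15 and were known when the other members were chosen.

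Prrx1, Prrx2 and Tbx18 rose and fell together from tumour to tumour. Over all 45 tumours Tbx15 passed the test only with Prrx2, a pass from which nothing is read, and Foxf2 passed with none. Prrx1 with Prrx2 had r = 0.73 (Spearman rho 0.68, n = 45 tumours). Tbx18 with Prrx1 had r = 0.70 (rho 0.74). Tbx18 with Prrx2 had r = 0.61 (rho 0.66). All 3 had a permutation p adjusted over the 10 pairs of 5e-05 to 6.7e-05, set by 1e-05, the smallest p that the permutations can give, or by the next step above it. They held without the 2 tumours farthest from the median, at 0.64 to 0.67, and with the mean of each host group subtracted, at 0.63 to 0.74.

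Within the host groups, Prrx1 with Prrx2 had r = 0.61 in sham, 0.84 at 10 cGy, 0.76 at 30 cGy and 0.81 at 80 cGy. Tbx18 with Prrx1 had 0.68, 0.77, 0.55 and 0.77 in the same order, and Tbx18 with Prrx2 0.76, 0.59, 0.91 and 0.32. All of these values were positive. Subtraction of the mean of each array set left the 3 pairs between 0.61 and 0.73.

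Tbx15 with Prrx2 had r = 0.47 (rho 0.53, adjusted permutation p = 0.0022 for r and 0.0006 for rho). The relation held in sham tumours at r = 0.59 but was 0.12 at 10 cGy, 0.24 at 30 cGy and -0.06 at 80 cGy. With group means subtracted it was 0.32 and no longer passed (adjusted permutation p = 0.085). Both genes had their highest group mean at 80 cGy. Tbx15 with Tbx18 (r = 0.24) and with Prrx1 (r = 0.16) did not pass, and neither did any of the 4 pairs with Foxf2, at 0.06 to 0.23. Tbx15 with Tbx18 passed without the tumours poor in epithelial markers (r = 0.40, adjusted permutation p = 0.029), and Prrx2 with Foxf2 passed without the 2 tumours farthest from the median (r = 0.35, adjusted permutation p = 0.047). In all, 4 of 10 pairs passed over the 45 tumours. The passes of Tbx15, with Prrx2 and with Tbx18, pooled the 80 cGy tumours on which it was chosen, so nothing is read from them.

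**Figure D3:**
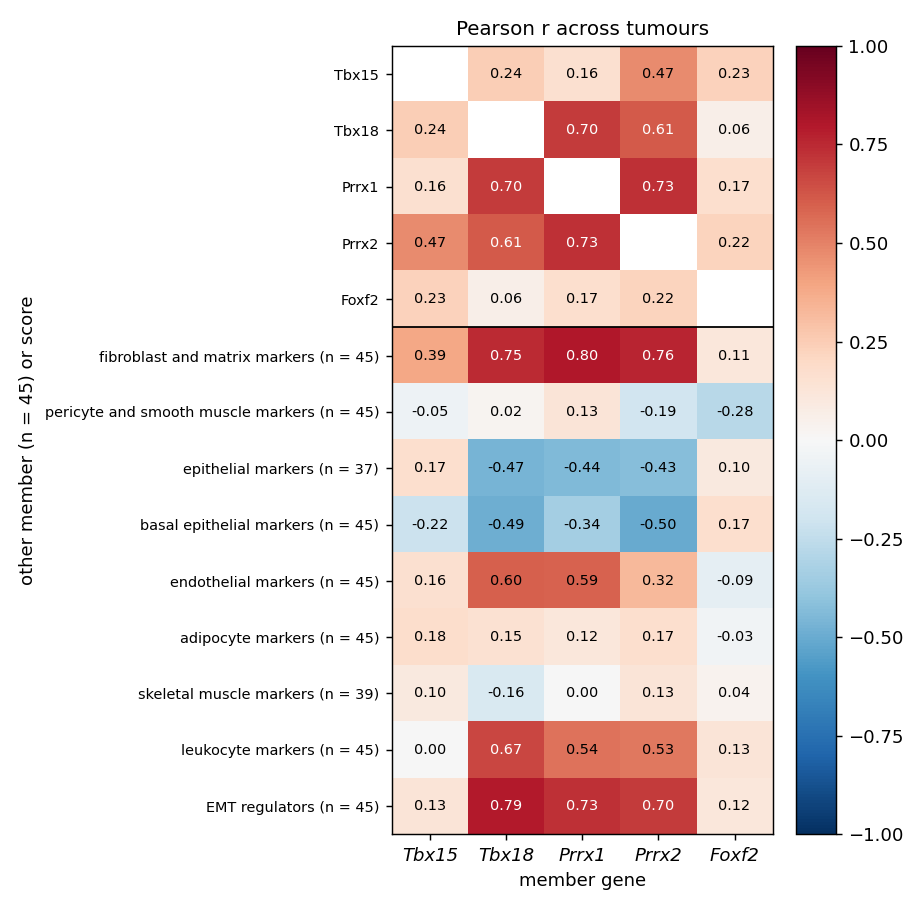
Pearson r (colour and printed number) of each member gene (columns) with the other members and with 9 cell type scores (rows), over 45 tumours except where a score fell into separate clusters and the larger one is shown (37 tumours for epithelial, 39 for skeletal muscle markers). Tbx18, Prrx1 and Prrx2 share a pattern, with r of 0.75 to 0.80 for the fibroblast and matrix score, which the columns of Tbx15 (0.39) and Foxf2 (0.11) do not show.

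The same 3 genes followed markers of fibroblasts and matrix. With the score of 19 fibroblast and matrix markers, which include collagens, Pdgfra and Pdgfrb, r was 0.75 for Tbx18 (rho 0.75), 0.80 for Prrx1 (rho 0.76) and 0.76 for Prrx2 (rho 0.77). Each had an adjusted permutation p of 7.9e-05 for r over the 55 relations of members with scores. Within the 4 host groups r was 0.70 to 0.78 for Tbx18, 0.62 to 0.91 for Prrx1 and 0.68 to 0.91 for Prrx2. Tbx15 had r = 0.39 (rho 0.41, adjusted permutation p = 0.027). It was 0.34 and no longer passed without the 2 tumours farthest from the median (adjusted permutation p = 0.060). It was likewise 0.34 without the tumours with muscle or fat (adjusted permutation p = 0.11). The value was 0.46 without the tumours poor in epithelial markers, 0.41 with array set means subtracted and 0.36 with group means subtracted. Within the host groups it was 0.52 in sham, -0.03 at 10 cGy, 0.44 at 30 cGy and 0.33 at 80 cGy. The pooled values of Tbx15 include the 80 cGy tumours on which it was chosen, so nothing is read from its pass. Foxf2 had r = 0.11 (adjusted permutation p = 0.59). Differences between these correlations were not tested.

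**Figure D4:**
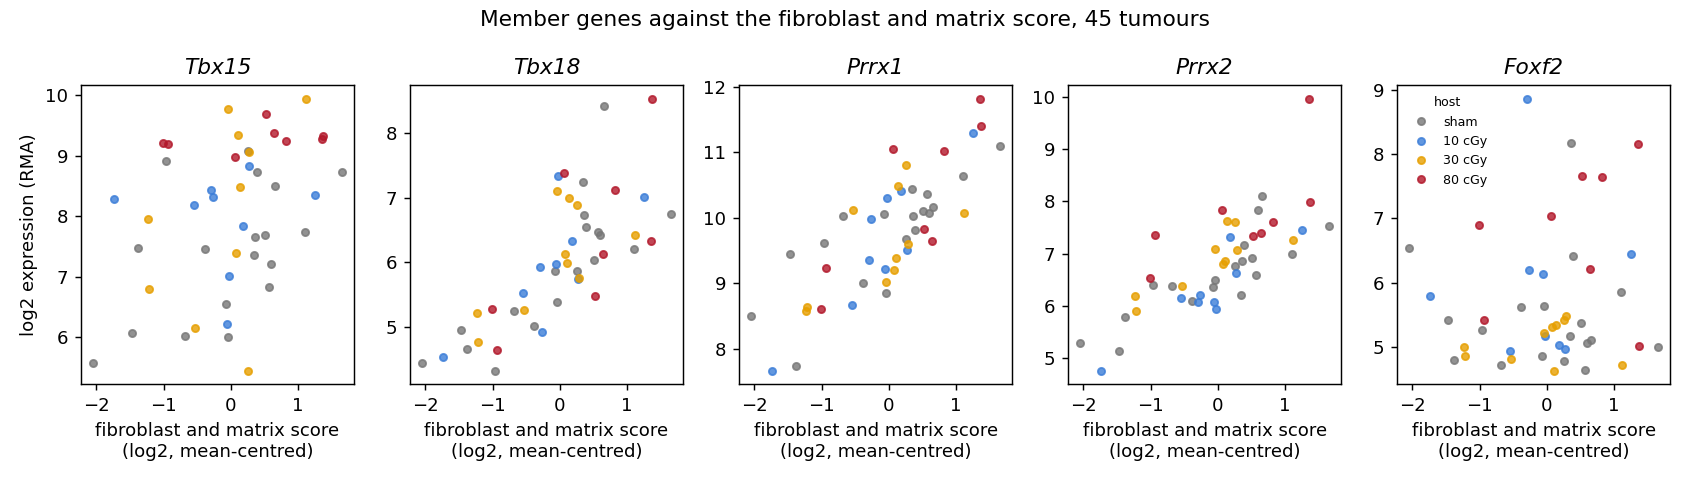
Log2 expression of each gene (y axis) against the fibroblast and matrix score (x axis, log2, centred on the mean of each marker) in 45 tumours, coloured by host group. Tbx18, Prrx1 and Prrx2 rise along the score (r = 0.75, 0.80 and 0.76), whereas the 80 cGy points of Tbx15 stay between 8.97 and 9.68 at scores from -1.003 to 1.379.

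Single markers gave the same picture, but each is part of its own score and is not separate support. Col1a1, the main fibrillar collagen chain, had r = 0.66 with Tbx18, 0.70 with Prrx1, 0.73 with Prrx2, 0.46 with Tbx15 and 0.19 with Foxf2. Pdgfrb, a receptor of fibroblasts and pericytes, had r = 0.83 with Tbx18 and -0.03 with Foxf2. The pericyte and smooth muscle score passed with no member over the 45 tumours (r from -0.28 for Foxf2 to 0.13 for Prrx1). Within the host groups its r with Foxf2 was 0.08 in sham, -0.40 at 10 cGy, -0.77 at 30 cGy and -0.57 at 80 cGy. With Tbx18 it was 0.04, 0.53, -0.55 and 0.28 in the same order. The values within groups were not tested. Rgs5, a pericyte gene, had r = 0.33 with Tbx18 and -0.18 with Foxf2, and Acta2, smooth muscle actin, had r = -0.38 with Tbx15 and -0.42 with Foxf2. Both genes were well expressed, with lowest log2 levels of 6.84 and 10.44.

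The score of 12 regulators and markers of epithelial-mesenchymal transition (EMT), such as Zeb1, Snai2 and Vim, also separated the members. It had r = 0.79 with Tbx18, 0.73 with Prrx1 and 0.70 with Prrx2 (adjusted permutation p = 7.9e-05 each). It had r = 0.13 with Tbx15 and 0.12 with Foxf2 (adjusted permutation p = 0.59 for both). Leukocyte markers followed the same 3 genes at 0.67, 0.54 and 0.53, and Ptprc, the pan-leukocyte antigen CD45, had r = 0.66 with Tbx18 and -0.01 with Tbx15. Endothelial markers had r = 0.60 with Tbx18 and 0.59 with Prrx1. For Prrx2 the endothelial r was 0.32 over 45 tumours and did not pass (adjusted permutation p = 0.091), but rho was 0.57 and passed (adjusted permutation p = 0.00032). Without the 2 tumours farthest from the median r was 0.69, so the low pooled r rests on those 2 tumours. For Tbx15 the endothelial r was 0.16 and rho 0.34, and neither passed (adjusted permutation p = 0.54 and 0.063). The r of Tbx15 was 0.40 without those 2 tumours and 0.45 without the tumours poor in epithelial markers.

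Epithelial markers ran opposite to these 3 genes in the tumours above the gap in the epithelial score. Because the epithelial score fell into separate clusters, it was examined within each. In the 37 tumours above the gap, r was -0.47 for Tbx18, -0.44 for Prrx1 and -0.43 for Prrx2 (adjusted permutation p = 0.013, 0.020 and 0.027). These 3 values no longer passed without the tumours with muscle or fat, at -0.36, -0.37 and -0.39. Tbx15 had 0.17 and Foxf2 0.10. In the 8 tumours below the gap Tbx18 had r = -0.46 and Prrx1 had 0.59, and neither passed (adjusted exact permutation p = 0.49 and 0.29). The sign for Prrx2 was opposite there too, r = 0.90 (rho 0.79), with an adjusted exact permutation p of 0.0092 for r and 0.070 for rho. Without the 2 tumours farthest from the median r for Prrx2 was 0.76 over 6 tumours and did not pass (adjusted p by the exact permutation test 0.22). Basal epithelial markers, such as Krt5 and Trp63, had r = -0.49 with Tbx18 and -0.50 with Prrx2 (adjusted permutation p = 0.0033 and 0.0022). Without the tumours poor in epithelial markers the value for Tbx18 was -0.29 and no longer passed (adjusted permutation p = 0.19), and that for Prrx2 was -0.52. For Tbx15 the value was -0.22 over all tumours and -0.48 without those tumours, where it passed (adjusted permutation p = 0.011). Both values include the 80 cGy tumours, on which Tbx15 was chosen, so nothing is read from that pass. With group means subtracted the value over all tumours was -0.13. Within the host groups it was -0.25 in sham, -0.01 at 10 cGy, -0.02 at 30 cGy and -0.04 at 80 cGy. Foxf2 had r = 0.17 with basal epithelial markers over all tumours and did not pass (adjusted permutation p = 0.50). Within the host groups its r was 0.48, 0.66, -0.53 and -0.79 in the same order, which was not tested.

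The tumours poor in epithelial markers showed how far the members part. All 8 had Prrx1 above 10, from 10.08 to 11.82. Tumours outside the 8 also exceeded 10, such as sham replicate 7 (11.09), 10 cGy replicate 8 (11.29) and 80 cGy replicate 1 (11.39). Tbx18 of the 8 ran from 6.34 to 8.42, above the median of all sham tumours in each. That median had 9 of the 18 sham tumours above it. Tbx15 of the 8 spanned nearly the whole range, from 5.45 to 9.28. Foxf2 was between 4.64 and 5.41 in the 6 tumours of the sham, 10 and 30 cGy groups, and 7.03 and 8.16 in both of the 80 cGy group. The 8 were separated by a score made of other genes, and the counts are a description. Adipocyte and skeletal muscle scores passed with no member by Pearson r (adjusted permutation p from 0.43 to 1.00), and by rank only Tbx18 with the adipocyte score did (rho 0.36, adjusted permutation p = 0.043).

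Other genes whose levels most resembled each member were sought over all 12122 other genes, by Pearson r over the 45 tumours, as a description with no test. Tbx15 stood nearly alone: only 2 genes had r above 0.6. They were Hs3st1, a heparan sulfate sulfotransferase (0.66), and Edil3, a secreted integrin ligand (0.62), and Ap3s1 (0.60), Hoxc8 (0.59) and the matrix proteoglycan Bgn (0.58) followed. With group means subtracted, Hs3st1 was at 0.50 and Edil3 at 0.51. The genes that ran most opposite to Tbx15 were Cbr3 (-0.59), Ppp1r12a (-0.57) and Cacnb4 (-0.56).

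Tbx18, Prrx1 and Prrx2 had 453, 323 and 214 genes with r above 0.6. Closest to Tbx18 were B3gnt9 (0.84), Pdgfrb (0.83), Adam12 (0.83), the collagen gene Col5a3 (0.81) and Mmp14 (0.80), a membrane-bound matrix metalloproteinase. Closest to Prrx1 were Pcolce (0.82), an enhancer of procollagen processing, Mmp14 (0.81), Fkbp7 (0.80), Hhipl1 (0.80) and Abi3bp (0.79). Closest to Prrx2 were the prostaglandin receptor Ptgfr (0.84), Mxra8 (0.81), the elastin and collagen cross-linking enzyme Loxl1 (0.80), Tspan11 (0.79) and Adamts6 (0.78). Mmp14 was on the lists of both Tbx18 and Prrx1, and it had r = 0.71 with Prrx2 but 0.26 with Tbx15 and 0.13 with Foxf2. Most opposite were, for Tbx18, the tight junction gene Tjp3 (-0.74), Rnf43 (-0.73) and Strbp (-0.72). For Prrx1 they were Rab11fip4 (-0.70), Mfn1 (-0.68) and Ppp1cb (-0.67), and for Prrx2 Plcxd1 (-0.68), Oacyl (-0.65) and Cd164l2 (-0.64).

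Foxf2 had 0 genes with r above 0.6, and its 5 nearest were none of those of the other members. It was above the table median in only 15 tumours, and the effect of its compressed low values on r was not tested. They were Zbtb7a (0.60), Pgs1 (0.56), Cast (0.54), Arid5a (0.54) and Nupr1 (0.54). Most opposite were Bhlhb9 (-0.56), Pygb (-0.55) and Idh3g (-0.55). Zbtb7a, a zinc finger repressor, had r of -0.03 to 0.11 with the other 4 members.

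The genes on either side of Foxf2 in the genome did follow it. In RefSeq's gene order Foxf2 lies between 2 other forkhead genes, Foxq1 and Foxc1, and this comparison with neighbours was chosen after the values were seen. Foxq1, a forkhead factor of hair follicle and stomach epithelium, had r = 0.47 with Foxf2 (rho 0.48, 0.45 without the 2 farthest tumours), higher than 99.8% of all genes. Foxc1, a factor of mesenchyme and of basal-like breast epithelium, had r = 0.42 (rho 0.38, 0.42 without the 2 farthest), higher than 99.4%. Gmds, the next measured gene after Foxc1, had r = 0.33, higher than 97.3%. With group means subtracted the values were 0.41, 0.45 and 0.27. The next genes out, Exoc2 (0.15) and Wrnip1 (0.07), were lower. Foxq1 and Foxc1 did not follow Tbx18, Prrx1 or Prrx2. For Foxq1 r was -0.45, -0.33 and -0.22 in that order, and for Foxc1 -0.37, -0.36 and -0.21. The 10 neighbours of Tbx15 had r from -0.31 to 0.24, and Wars2 and Gdap2 beside it had 0.16 and -0.09. Values of such a size were not particular to Foxf2. Farther from Tbx18 in gene order, Prss35 had r = 0.46 with it, higher than 89.5% of all genes. Ube2cbp had 0.39, higher than 85.4%, while Me1 between them had -0.22.

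**Figure D5:**
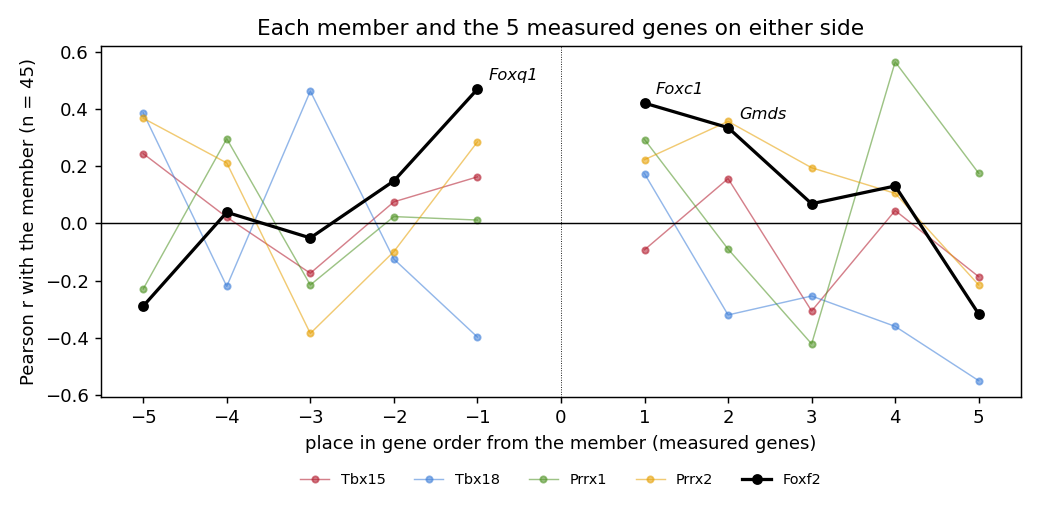
Pearson r over 45 tumours (y axis) of each member with the 5 measured genes on either side of it in gene order (x axis, place from the member, with no scale of distance). Foxf2 (black) has r = 0.47 with Foxq1, 0.42 with Foxc1 and 0.33 with Gmds beside it and lower values farther out. The nearest genes of the other members have r from -0.40 to 0.29. Farther out, Tbx18 has r = 0.46 with Prss35 and 0.39 with Ube2cbp.

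The paralogues and other patterning genes were taken from 4 lists. Of 14 other T-box genes 4 passed the filter, namely Mga, Tbx3, Tbx2 and Tbx1. Of 28 homeobox genes 14 passed, of 10 forkhead genes 5, and of 31 other patterning factors 19. In the 3 tested comparisons 0 of these 42 genes passed the adjusted threshold, beside 0% of all genes. An unadjusted p under 0.05 was reached by 0 of them at 10 cGy against sham, by 1 at 30 cGy against sham and by 2 at 30 against 10 cGy, all on the homeobox list, beside 3.65%, 4.45% and 2.98% of all genes.

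Foxf1, the closest relative of Foxf2 and likewise a factor of gut and lung mesenchyme, did not share its pattern. Foxf1 had r = 0.17 with Foxf2, most of whose values lie in the compressed low range, but 0.67 with Tbx18, 0.65 with Prrx1 and 0.58 with Prrx2. Its log2 level ran from 5.63 to 9.89, and its 80 cGy mean was 0.98 above sham. Foxp1 (mean 9.62) varied little, with an SD of 0.46 and r of -0.27 to 0.17 with the members. Foxq1 ran from 3.68 to 9.72 and was -0.45 ± 0.56 from sham at 30 cGy.

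Other T-box genes had r of at most 0.42 in size with any member. That value was Tbx1 (mean 5.55) with Prrx2, and Tbx1 had r = 0.35 with Tbx15. Mga (mean 8.98, SD 0.32) had r = -0.41 with Tbx18. Tbx3 (mean 7.16), a factor of mammary bud formation, had r = 0.38 with Prrx1 and -0.04 with Tbx15. Tbx2 (mean 6.48) had r = -0.35 with Prrx2. Tbx1 was -0.31 ± 0.28 from sham at 10 cGy. The median r of the 4 genes with Tbx15 was -0.08, beside 0.03 for all genes.

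On the homeobox list, Pbx3 (mean 8.90), Meox2 (7.22) and Meis2 (6.99) were the highest on average. Meis2, a partner of Hox proteins, had r = 0.53 with Tbx15, 0.46 with Tbx18, 0.40 with Prrx1 and 0.58 with Prrx2, and Meox2 had 0.50 with Tbx18 and with Prrx1. The largest differences from sham among all 4 lists at 10 cGy were Dlx5 (0.72 ± 0.55), Barx2 (0.63 ± 0.40) and Sox9 (0.58 ± 0.45) upward, and Ebf1 (-0.39 ± 0.47), Tbx1 and Msx2 (-0.30 ± 0.41) downward. At 30 cGy they were Emx2 (0.75 ± 0.30), Pax9 (0.63 ± 0.49) and Msx2 (0.46 ± 0.40) upward, and Twist2 (-0.52 ± 0.49), Foxq1 and Ebf3 (-0.43 ± 0.38) downward. None of them passed the test. En1, chosen after its values were seen, had r of 0.54 to 0.67 with Tbx15, Tbx18, Prrx1 and Prrx2 and 0.24 with Foxf2.

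Among the 19 other patterning factors, 15 had a positive r with Tbx15, 13 with Tbx18, 16 with Prrx1, 15 with Prrx2 and 10 with Foxf2, beside 56.3%, 45.8%, 45.2%, 46.5% and 48.8% of all genes. The median r was 0.13 with Tbx15, 0.46 with Tbx18, 0.32 with Prrx1, 0.25 with Prrx2 and 0.09 with Foxf2, beside 0.03, -0.04, -0.04, -0.03 and -0.01 for all genes. Twist2, a bHLH factor of dermal and skeletal mesenchyme, had r = 0.74 with Prrx1, 0.69 with Prrx2 and 0.63 with Tbx18. Osr2, chosen after its values were seen, had r = 0.78 with both Prrx1 and Prrx2. Ebf1 had r = 0.74 with Tbx18 and 0.08 with Tbx15. Sox9 (mean 9.86) ran the other way, at -0.46 with Tbx18, and had r = 0.38 with Foxf2, and Tcf4 (mean 10.04) had 0.59 with Prrx1. Osr1 (mean 9.34) followed none, with r between -0.10 and 0.13.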

How the data were processed

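The authors deposited log2 values per probe set for 45 single-colour Affymetrix arrays. RMA and the oligo package are named in the submitters' processing notes, without versions. RMA makes array distributions alike and compresses low values. Groups were read from the sample titles. Symbols came from the platform annotation: 21218 of 35556 probe sets had 1 symbol, 1881 several and 12457 none in the table used here. A gene took its probe set with the highest mean and was kept where it exceeded the table median, 5.67, in at least 8 tumours. The number of arrays limits the precision.

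The members, gene lists and tests were chosen with earlier results of these data known. Group means of the 12123 kept genes were fitted with limma 3.58.1 (lmFit, eBayes, R 4.3.3), two-sided, with Benjamini-Hochberg adjustment over all genes and a threshold of 0.05. Contrasts with 80 cGy were described only. Correlations used 100000 two-sided permutations, or all arrangements in clusters of at most 8 tumours, with Benjamini-Hochberg adjustment over 10 pairs or 55 relations with 9 cell type scores. A score was split at its largest gap where that gap spanned at least 15% of the range with at least 6 tumours on each side. The procedures were tested on simulated data. Named genes were the 5 members, for each the 5 most and 3 least alike genes, from each patterning list the 3 with the highest mean, over all 4 patterning lists the 3 largest differences in each direction at 10 and 30 cGy, and 11 defining markers. Others are named as chosen after their values were seen.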

Additional observations from a re-analysis of the deposited data

Results flagged for a closer look

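In each group of 8 to 10 tumours, the highest and the lowest value were set against the rest with Dixon's test, which by chance marks about 1 in 20 groups. The 18 sham tumours were not examined in this way. Of 255 groups examined, 27 had a tumour that stood apart, among them 2 of the 15 groups of the members themselves. Prrx2 reached 9.97 in replicate 8 of 80 cGy, where the next tumour had 8.00. Foxf2 reached 8.87 in replicate 7 of 10 cGy, where the next had 6.44.

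Most of the other marks fell on a few tumours. Replicate 1 of 30 cGy was high for the adipocyte score (4.95), the skeletal muscle score (6.40) and the endothelial score (0.91), and for Adipoq (11.33), Ckm (13.27), Pecam1 (9.99), Tbx1 (8.23) and Ebf3 (7.79). The same tumour had the highest Tbx15 of all 45. Replicate 1 of 10 cGy was low for the epithelial score (-3.50), Epcam (5.68) and Krt18 (6.38), and high for Meox2 (10.73) and Ebf3 (9.45). Replicate 4 of 30 cGy was low for the epithelial score (-2.56) and Epcam (6.16), and it had the lowest Tbx15 of all 45.

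Pax9, a factor of skeletal and tooth mesenchyme, was high in a single tumour of 2 groups, replicate 2 of 10 cGy (9.66) and replicate 9 of 30 cGy (10.69), and without them its differences from sham went from 0.55 to 0.04 and from 0.63 to 0.08. Msx2 was high in replicate 6 of 10 cGy (7.79) and in replicate 3 of 80 cGy (5.33), where Mga was low (8.23). Twist2 was high in replicate 8 of 10 cGy (10.11), the only tumour outside 80 cGy with all 5 members above their medians. Mxra8 was low in replicate 3 of 10 cGy (7.22), the tumour with the lowest Prrx1 and Prrx2. Single values also stood apart for Cacnb4 (7.57 in replicate 5 of 30 cGy), Plcxd1 (5.20 in replicate 7 of 80 cGy) and Pygb (10.60 in replicate 6 of 30 cGy).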

How the results depend on the processing

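The alternatives were arrays centred on their median, quantile normalization, no filter and a stricter filter (above the table median in at least 23 tumours, which Foxf2 did not pass), the mean of all probe sets, array weights, a trended and robust spread, a replicate block, shared code stems as a random block, sham codes starting with 5 or 6 alone, and the array set as a block. Chosen after seeing the data were the removal of tumours with muscle or fat, or poor in epithelial markers, or of replicate 7 of 10 cGy, and the fibroblast and matrix score as a covariate. No member passed in any tested contrast under any of them. Of 395 member differences under an alternative, 13 changed sign, none of them at 80 cGy. Tbx18 at 10 cGy against sham went from 0.0025 to -0.016 with centred arrays, -0.16 with array weights, -0.16 with sham codes starting with 6 and -0.014 with the array set as block. At 30 cGy Tbx18 was -0.026 with sham codes starting with 6. Prrx1 at 10 cGy was 0.0010 with sham codes starting with 5, and over the 3 doses together it was -0.12 with codes starting with 6. Between 30 and 10 cGy, Tbx15 was -0.059 with array weights and -0.33 without tumours with muscle or fat. Prrx1 in that contrast was 0.028 with centred arrays, 0.0050 with quantile normalization, 0.0081 with the replicate block and 0.0088 with the array set as block. The count of genes called at 80 cGy against sham, 0, became 30 with array weights and 1 with the replicate block, and over the 3 doses together it became 6 with the replicate block. The replicate numbers did not pair the tumours: over 52 same-numbered pairs the median r of their deviations was -0.07, 10 were above 0.1, and 0 tumours matched their own number best. Of 10 member pairs, 3 to 5 passed. Of the score relations, 17 to 19 of 55 passed, and 15 of 50 without tumours with muscle or fat, 19 of 50 without those poor in epithelial markers and 19 of 50 without the 2 farthest. Causes of these changes were not tested.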

Other observations

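The description codes of the tumours share a stem in 8 pairs, and the labels do not say what a shared stem means. The codes hold a digit, a letter and L or R, so tumours with a shared stem could come from the same host, which was not tested. With the stem as a random block, limma's consensus correlation between tumours of a shared stem was 0.24. The permutation tests of correlations took all tumours as separate and were not run with stems blocked. The median absolute difference within the 8 pairs was 0.48 for Prrx2 and 0.64 for Prrx1 (log2), beside 0.74 and 0.84 over 254 other pairs of the same group. For Tbx15 it was 1.44 within the pairs and 1.07 among the others, for Tbx18 1.29 and 1.03, and for Foxf2 0.50 and 0.61. The 2 arrays most alike over all genes, replicate 1 of 10 cGy and replicate 16 of sham (r = 0.978), were both poor in epithelial markers, with Prrx1 at 10.30 and 10.45 and Tbx18 at 7.34 and 7.25.

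Of the 19 other patterning factors that passed the filter, 15 had a higher mean at 80 cGy than in sham, with a median difference of 0.31, beside 56.6% of all genes and a median of 0.03. All 19 fibroblast and matrix markers had a higher mean too, with a median of 0.34. These are descriptions of the comparison from which Tbx15 was chosen and which was known when the other members were chosen. Basal epithelial markers had a lower mean in 8 of 8, with a median of -0.99.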
